A study of Ursus arctos with 12 samples.

Results

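The genes described here are 10 genes of the neuromuscular junction, taken by symbol from the bear muscle counts: CHRNA1, CHRNB1, CHRND, CHRNE and CHRNG, which encode the subunits of the muscle acetylcholine receptor, and MUSK, DOK7, RAPSN, LRP4 and AGRN. All 10 were found among the 30249 genes of the file, and 10 of 10 passed the filter of 30 reads over the 12 libraries, which 17290 genes passed. Biopsies came from a muscle of the thigh, the vastus lateralis, of 6 free-ranging brown bears (Ursus arctos) aged 2 to 3 years, each during hibernation (winter) and again in its active period (summer). The animals carried no experimental treatment, and the seasons differ in feeding, activity and body temperature together, which cannot be told apart. Poly-A RNA was sequenced with strand information. Expression is given as CPM, the reads of a gene scaled to the TMM-adjusted total of its library, or as its log2.

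The neuromuscular junction is the synapse at which a motor axon excites a muscle fibre. Agrin, released into the synaptic cleft, binds LRP4, which activates the receptor tyrosine kinase MuSK, and the adaptor Dok-7 binds MuSK from inside the fibre. Rapsyn then anchors the acetylcholine receptors in dense clusters under the nerve ending. The adult receptor carries the epsilon subunit (CHRNE) beside alpha, beta and delta subunits, while the fetal receptor carries the gamma subunit (CHRNG) in its place and returns when an adult fibre loses its nerve.

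Depth was 20191068 to 27283155 reads per summer library and 16742406 to 32140160 per winter library. The muscle fibre markers found by symbol, 9 of the 10 listed, summed to 117821 to 196029 CPM in summer and 123785 to 162984 CPM in winter, so the tissue matched its label in all 12 libraries. The winter library of bear 1509 stood apart from the other 11: it held SNAP25, a protein of nerve terminals, at 136 CPM against at most 0.241 CPM elsewhere and the neurofilament NEFL at 9.05 CPM against at most 0.304. For the 10 genes, calls at an adjusted p below 0.05 that differ without this bear are given both ways. Fewer fibre nuclei under a synapse in a biopsy and less RNA per nucleus cannot be told apart in these bulk samples.

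In winter, CHRNE, CHRNG, MUSK and DOK7 rose and AGRN and RAPSN fell, while CHRNA1, CHRNB1, CHRND and LRP4 were not called. Thus 4 of the 10 genes were higher and 2 lower in edgeR's quasi-likelihood test at a Benjamini-Hochberg adjusted p below 0.05. Of all genes tested, 19.6% were higher and 19.9% lower. This fit had season as its only term and left out the pairing by bear. It gave every adjusted p below except where another fit is named. Ranges over the alternatives come from the other fits. In either direction 6 of 10 were called, against 39.5% of all genes. The median log2 fold change of the 10 genes was 0.71, against −0.002 for all genes tested. Winter and summer libraries did not overlap in CPM for 3 genes, CHRNE and MUSK above and AGRN below, where 9.12% and 8.21% of all genes were separated in these directions. At an adjusted p below 0.01 with a fold change above 1.3 or below 0.77, which 24.0% of all genes passed, 3 of the 10 were higher (CHRNE, CHRNG and MUSK) and 1 was lower (AGRN). Without bear 1509, 5 genes were higher and 1 was lower, since CHRNB1 was then called and RAPSN was not. DOK7 then also passed the stricter threshold (fold change 2.75, adjusted p = 0.00375). The shares of all genes given above are those of the fit with all bears, not of this fit. Without bear 1509, all remaining winter libraries were above all summer libraries for CHRNG and DOK7 as well. The shares of separated genes above are for all 12 libraries, and separation is easier to reach with fewer.

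**Figure D1:**
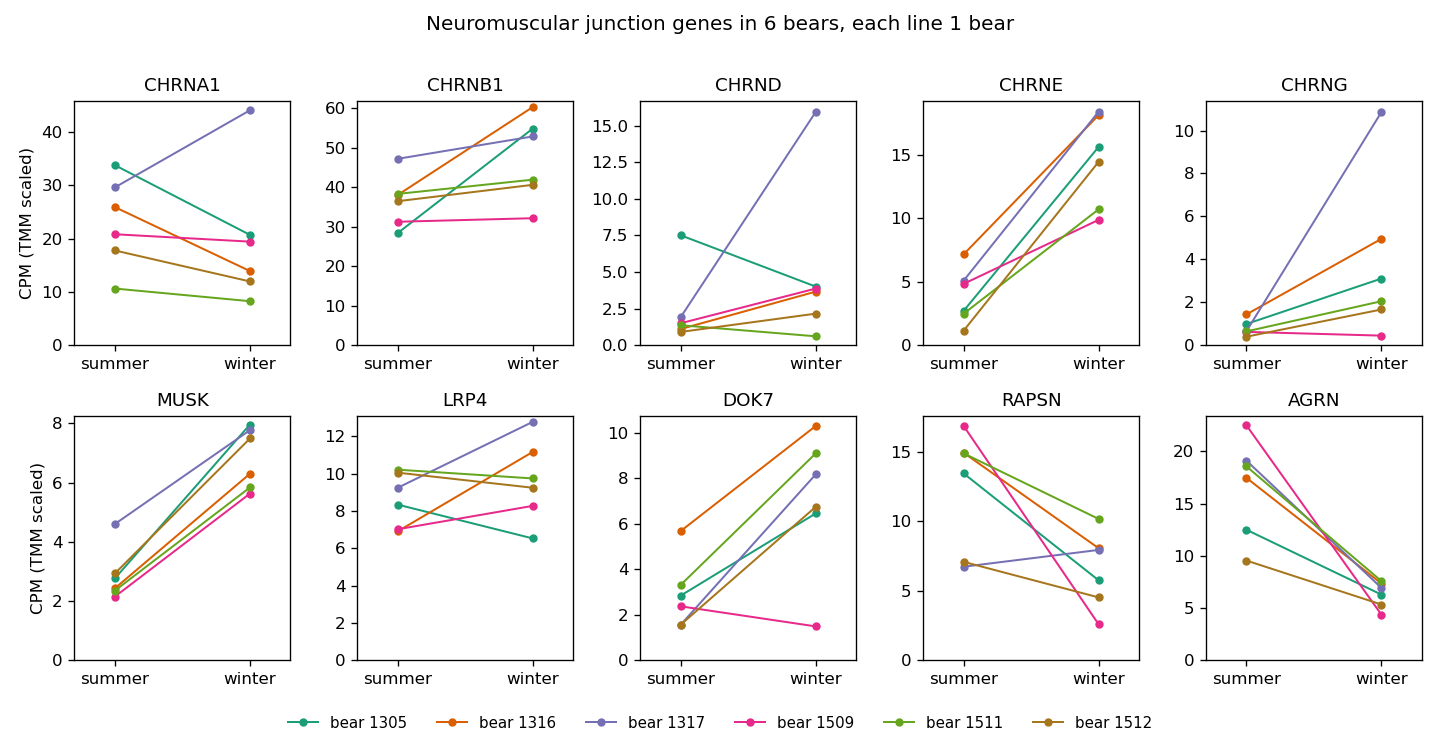
CPM of the 10 genes (y axis, from 0, scaled for each gene) in summer and winter (x axis), with 1 line for each of the 6 bears. All 6 lines rise for CHRNE, CHRNB1 and MUSK and all 6 fall for AGRN, while the line of bear 1509 runs against the others for CHRNG and DOK7.

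The epsilon subunit of the adult receptor, CHRNE, lay between 1.13 and 7.16 CPM in summer (median 3.76) and between 9.88 and 18.4 CPM in winter (median 15.0). Every winter library was above every summer library. On the log2 scale (mean ± SD, n = 6 bears) CHRNE stood at 1.77 ± 0.92 in summer and 3.83 ± 0.38 in winter, and the spread between bears was smaller in winter. The fitted log2 fold change was 1.91 (SE, the standard error of the fit, 0.34, adjusted p = 0.000757), and single bears rose by 1.02 in bear 1509 to 3.57 in bear 1512. Whichever bear was left out, the log2 fold change stayed between 1.72 and 2.1 and the adjusted p was at most 0.00609.

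For the gamma subunit of the fetal receptor, CHRNG, the counts were low, with 8 to 193 reads per library. It lay between 0.391 and 1.43 CPM in summer (median 0.645) and between 0.441 and 10.9 CPM in winter (median 2.57). The winter libraries of 5 bears were above every summer library, and that of bear 1509 lay among the summer libraries. The log2 fold change of CHRNG was 2.29 (SE 0.58, adjusted p = 0.00699), higher in 5 of 6 bears. Bear 1317 had the highest winter level, and without this bear the log2 fold change was 1.6 (adjusted p = 0.0372). Leaving out bear 1509 gave 2.47 (adjusted p = 0.00305), and over all alternatives the adjusted p ran from 6.47e-05 to 0.0399. Reads of CHRNG were therefore present in both seasons, and its winter level varied more between bears (SD 1.48 on the log2 scale) than that of CHRNE (0.38).

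Both isoform-specific subunits rose, so the change of the gamma to epsilon ratio was taken within each bear. The log2 CPM of CHRNG minus that of CHRNE changed from summer to winter by −0.92 in bear 1305, 0.40 in bear 1316, 2.05 in bear 1317, −1.43 in bear 1509, −0.52 in bear 1511 and −1.70 in bear 1512. The ratio thus went down in 4 bears and up in 2, with a median change of −0.72 and an SD of 1.39, so no common direction was seen. Gene lengths were not used here, so the ratio compares seasons and not the amounts of the subunits.

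**Figure D2:**
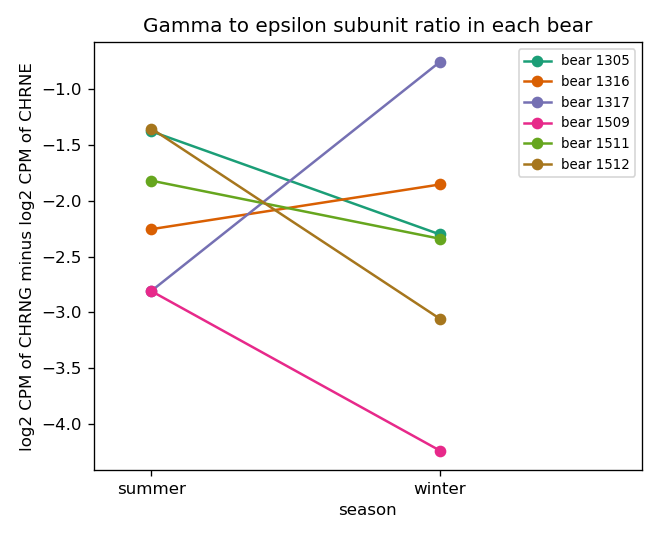
Difference of log2 CPM between CHRNG and CHRNE (y axis) in summer and winter (x axis), with 1 line per bear. Summer values lie between −2.81 and −1.35 and winter values spread from −4.24 to −0.76, with lines of both directions.

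The subunits common to both receptor forms gave no call. CHRNB1, the beta subunit, lay between 28.4 and 47.2 CPM in summer (median 37.2) and between 32.1 and 60.3 CPM in winter (median 47.3). It was higher in winter in 6 of 6 bears, but the groups overlapped, and 4 of these differences were at most 0.16 on the log2 scale. CHRNB1 had a log2 fold change of 0.36 (SE 0.16, adjusted p = 0.0818). Without bear 1509 it was 0.42 (adjusted p = 0.0423), in DESeq2 with a term for the bear (a replicate block) 0.36 (adjusted p = 0.0485), and over the alternatives the adjusted p ran from 0.0423 to 0.297.

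CHRNA1 encodes the alpha subunit, which holds most of the acetylcholine binding site. It lay between 10.6 and 33.8 CPM in summer (median 23.4) and between 8.24 and 44.1 CPM in winter (median 16.7), with wide overlap. CHRNA1 was lower in winter in 5 of 6 bears and higher in bear 1317. Its log2 fold change was −0.23 (SE 0.36, adjusted p = 0.638), and −0.55 without bear 1317 (adjusted p = 0.185, within 0.143 to 0.864 over the alternatives).

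The delta subunit, CHRND, varied widely between bears, with 10 to 283 reads per library. In summer it was at 7.50 CPM in bear 1305 and between 0.90 and 1.91 CPM in the other bears, and in winter at 15.9 CPM in bear 1317 and between 0.602 and 4.0 CPM in the others. The medians were 1.42 and 3.76 CPM, and it was higher in winter in 4 of 6 bears. The log2 fold change of CHRND was 1.06 (SE 0.66, adjusted p = 0.219), and it hung on these bears: it was 1.93 without bear 1305 (adjusted p = 0.0406) and 0.21 without bear 1317 (adjusted p = 0.821, the highest over the alternatives).

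**Figure D3:**
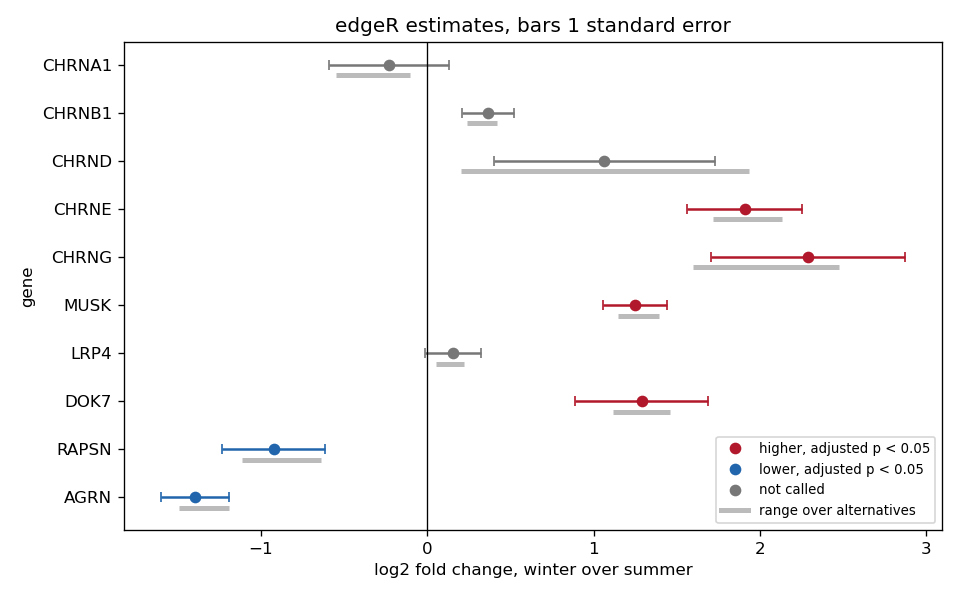
Log2 fold change of winter over summer (x axis) for each gene (y axis), with points at the edgeR estimate, thin bars of 1 standard error (n = 6 bears per season) and grey bars spanning the 14 alternative fits. The 4 red points from 1.25 to 2.29 are the genes called higher, the 2 blue points at −0.92 and −1.40 those called lower, and the grey bars cross 0 for none of the 10 genes in the alternatives fitted.

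Of the agrin signaling genes, MUSK had the most even change. This kinase, also a BMP co-receptor, lay between 2.15 and 4.60 CPM in summer (median 2.60) and between 5.63 and 7.96 CPM in winter (median 6.89). All 6 winter libraries were above all 6 summer libraries. The ratio of winter to summer CPM was 1.69 in bear 1317, which had the highest summer level, and between 2.48 and 2.87 in the other bears. The log2 fold change was 1.25 (SE 0.19, adjusted p = 0.000243), and between 1.18 and 1.39 whichever bear was left out.

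DOK7, the cytoplasmic activator of MuSK, lay between 1.56 and 5.68 CPM in summer (median 2.61) and between 1.49 and 10.3 CPM in winter (median 7.45). The winter libraries of 5 bears were above every summer library, and the winter library of bear 1509 was the lowest of all 12. The rise of DOK7 was seen in 5 of 6 bears, with a log2 fold change of 1.29 (SE 0.40, adjusted p = 0.0196). The call was lost when bear 1305 (adjusted p = 0.0563), 1317 (0.0723), 1511 (0.0518) or 1512 (0.0602) was left out, while without bear 1509 the log2 fold change was 1.46 (adjusted p = 0.00375). The adjusted p spanned 0.000371 to 0.0723 over the alternatives.

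LRP4, the agrin receptor on the fibre, showed no seasonal difference beyond the spread between bears. It lay between 6.92 and 10.2 CPM in summer (median 8.80) and between 6.53 and 12.8 CPM in winter (median 9.50), higher in 3 bears and lower in 3. LRP4 had a log2 fold change of 0.15 (SE 0.17, adjusted p = 0.485), and the adjusted p was at least 0.332 under every alternative.

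AGRN, the gene of agrin, fell in all 6 bears. It lay between 9.55 and 22.5 CPM in summer (median 18.0) and between 4.36 and 7.58 CPM in winter (median 6.61), and every winter library was below every summer library. On the log2 scale (mean ± SD, n = 6 bears) AGRN stood at 4.01 ± 0.46 in summer and 2.65 ± 0.30 in winter. The log2 fold change was −1.40 (SE 0.21, adjusted p = 0.000173), from −2.34 in bear 1509 to −0.83 in bear 1512, and −1.19 without bear 1509 (adjusted p = 0.000684). Agrin is made by motor neurons, by muscle fibres and by cells of vessels, and the counts do not separate its splice forms, of which the neuronal one clusters receptors. Endothelial markers fell as well: their sum was 588 to 921 CPM in summer and 396 to 460 CPM in winter. Of the 6 markers, 4 were lower (VWF, CDH5, KDR and PECAM1) and CLDN5 was higher, where 19.9% of all genes were lower and 19.6% higher. PECAM1 was not called without bear 1316, 1317, 1509, 1511 or 1512, nor CLDN5 without bear 1305, 1317, 1511 or 1512. Deviations from the season means correlated at 0.08 between the summed endothelial markers and AGRN over the 12 libraries. The part of these markers in the level of AGRN was not tested.

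RAPSN, which encodes the receptor anchor rapsyn, lay between 6.73 and 16.9 CPM in summer (median 14.2) and between 2.59 and 10.2 CPM in winter (median 6.85). The summer libraries of 4 bears were above every winter library, and the other 2 summer libraries lay among the winter ones. RAPSN was lower in winter in 5 of 6 bears and changed by 0.24 in bear 1317, on the log2 scale. The log2 fold change was −0.92 (SE 0.31, adjusted p = 0.0297). Bear 1509 had both the highest summer and the lowest winter level, and without it the log2 fold change was −0.64 (adjusted p = 0.0895, the highest over the alternatives, from 0.00391). Leaving out bear 1305 (adjusted p = 0.0890) or bear 1316 (0.0625) also left RAPSN without a call.

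Across the receptor and its clustering machinery the direction was therefore mixed within each bear. In 6 of 6 bears CHRNE and MUSK were higher while AGRN was lower. Bear 1317 had the highest winter CPM of all 6 bears for CHRNA1, CHRND, CHRNE, CHRNG and LRP4, whereas bear 1509 had the lowest for CHRNB1, CHRNE, CHRNG, MUSK, DOK7, RAPSN and AGRN.

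**Figure D4:**
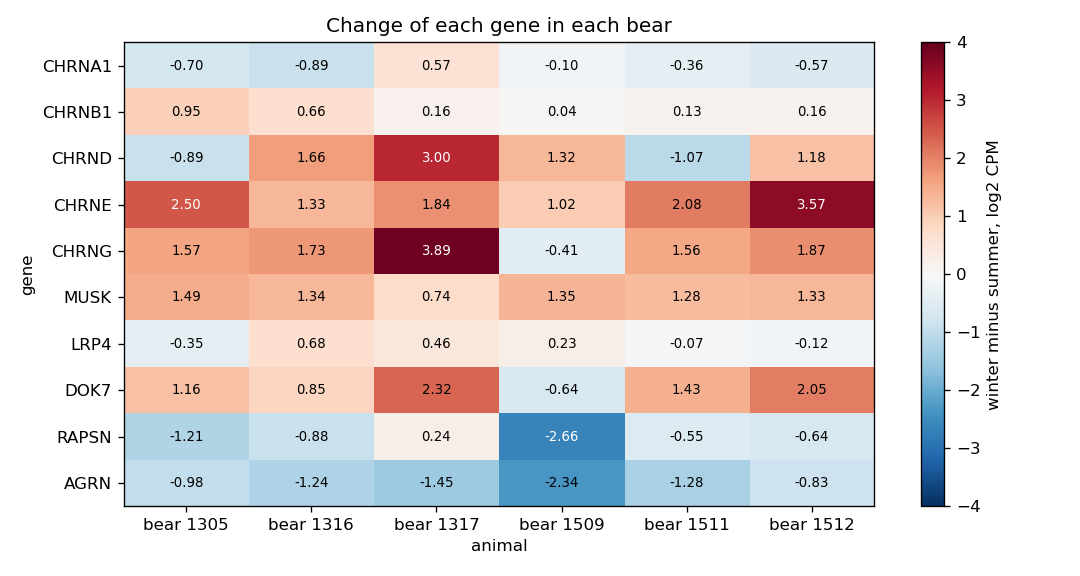
Winter minus summer log2 CPM of each gene (rows) in each bear (columns), with the value in each cell, red for higher and blue for lower in winter. CHRNE and MUSK are red and AGRN blue in all 6 columns, and the column of bear 1509 is blue for CHRNG and DOK7, at −0.41 and −0.64.

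To see which genes varied together, deviations of log2 CPM from the season means were correlated over the 12 libraries, as a description of samples that share library and depth. Over the 45 pairs of the 10 genes, Pearson's r ran from −0.42 to 0.85 with a median of 0.28. The highest values were 0.85 for DOK7 and RAPSN, 0.83 for CHRNA1 and CHRND, 0.78 for CHRNG and DOK7 and 0.71 for CHRNE and AGRN. Without the winter library of bear 1509 they were 0.75, 0.83, 0.50 and 0.69, while CHRNA1 and CHRNG moved from 0.45 to 0.74 and MUSK and RAPSN from −0.42 to −0.81. DOK7 and RAPSN varied together although the first rose and the other fell with season. Over the same 12 libraries the summed muscle fibre markers correlated with DOK7 at 0.75, with RAPSN at 0.60 and with CHRNG at 0.50. These were the highest values, and the remaining genes ran from −0.44 (MUSK) to 0.13 (CHRNB1). With the summed motor axon markers DOK7, RAPSN and CHRNG correlated at −0.86, −0.67 and −0.76. These were the lowest values, and the remaining genes ran from −0.56 (CHRNB1) to 0.07 (CHRNA1). That sum was 153 CPM in the winter library of bear 1509, where SNAP25 alone had 136 CPM. Its winter median was 1.37 CPM and its summer maximum 3.69 CPM. The motor axon values thus rest largely on that library, which had the lowest winter levels of DOK7, RAPSN and CHRNG. Neither the motor axon nor the fibre marker values were computed without it, and the part of the markers was not tested. The summer and winter levels of a bear correlated at 0.77 for CHRNA1 and 0.75 for MUSK, and at −0.12 to 0.39 for the other 8 genes (n = 6 bears each).

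Among 10344 other genes with a symbol and a mean of at least 1 log2 CPM, those whose log2 CPM followed MUSK most closely over the 12 libraries were UIMC1 (r = 0.98), ABI2 (r = 0.97) and NOL9 (r = 0.97). For AGRN they were TTYH3 (r = 0.99), WDR1 (r = 0.98) and NOTCH4 (r = 0.98). These correlations carry the season difference, since 211 genes correlated with MUSK above 0.9 and 146 with AGRN. Within a season, r was 0.95 in summer and 0.87 in winter for UIMC1 with MUSK, 0.92 and 0.52 for ABI2 and 0.86 and 0.80 for NOL9 (n = 6 libraries each). With AGRN it was 0.92 and 0.99 for TTYH3, 0.93 and 0.87 for WDR1 and 0.90 and 0.89 for NOTCH4.

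Around these 10 genes, 6 related lists were read in the same fit. Besides genes of the synapse, they hold transcription factors, glycosylation genes, genes raised by denervation and subunits of neuronal nicotinic receptors. Of their 62 distinct genes tested, 9 were higher and 10 lower in winter, where the shares over all genes tested were 19.6% and 19.9%. Of these 19 calls, 14 were made under every alternative that could be fitted. In the synaptic cleft and basal lamina 3 of 10 genes were lower, and the median of the list was −0.52. NID2, a nidogen, had a log2 fold change of −2.05 (adjusted p = 0.000105), HSPG2, which encodes the proteoglycan perlecan, of −2.0 (adjusted p = 0.000277) and the laminin chain LAMA4 of −1.58 (adjusted p = 3.47e-05). Each was lower in 6 of 6 bears. With the replicate block 5 were lower, COLQ (adjusted p = 0.0388, within 0.0388 to 0.256 over the alternatives) and COL13A1 (0.0205, within 0.00211 to 0.336) being added. COLQ anchors acetylcholinesterase in the cleft. The gene of that enzyme, ACHE, had 2 to 45 reads per library and was not called (log2 fold change −0.12, adjusted p = 0.909). Matrix genes of fibroblasts fell in the same libraries, as given below, and their part in these values was not tested.

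Of the 22 tested kinases, adaptors and scaffold proteins of the postsynaptic side, 5 were higher and 3 lower, with a median of −0.10. Of all genes tested, 19.6% were higher and 19.9% lower. Among the rises were those of CAV3, the caveolin of muscle (log2 fold change 0.81, adjusted p = 0.0032), PDZRN3, an E3 ligase that binds MuSK (0.70, adjusted p = 0.000238), APC (0.70, adjusted p = 0.000425) and CRKL, an adaptor that binds Dok-7 (0.40, adjusted p = 0.00433). These 4 genes were higher in 6 of 6 bears. Lower were DTNA, the dystrobrevin of the receptor scaffold (−0.60, adjusted p = 0.00339), the syntrophin SNTB2 (−0.58, adjusted p = 0.0311) and DNAJA3, a MuSK-binding chaperone (−0.36, adjusted p = 0.0173). That of SNTB2 did not hold when bear 1305 (adjusted p = 0.0816), 1317 (0.103), 1511 (0.0839) or 1512 (0.0782) was left out. The call of DNAJA3 was lost without bear 1316 (adjusted p = 0.0547), 1317 (0.0629) or 1509 (0.0715). Without bear 1509, CDK5 (adjusted p = 0.0211, within 0.0211 to 0.289 over the alternatives) and the utrophin gene UTRN (0.0235, within 0.0235 to 0.27) were called lower. ERBB3, a neuregulin receptor, stood higher in 5 of 6 bears at a log2 fold change of 0.76 (adjusted p = 0.144). With the replicate block it was 0.72 (adjusted p = 0.00335, within 4.82e-05 to 0.279 over the alternatives). NRG1, the gene of neuregulin itself, had 21 reads in all 12 libraries and ERBB4 had 18, and neither was tested.

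The transcription factors listed for synaptic nuclei were mostly not called, and their median was −0.03. Of 11, 2 were higher, where 19.6% of all genes were. These were MYF6, the myogenic factor of mature fibres (log2 fold change 0.73, adjusted p = 0.0379), and GABPA, whose protein binds the promoters of receptor subunit genes (0.32, adjusted p = 0.0421). MYF6 was higher in 5 of 6 bears and GABPA in 6 of 6. Without bear 1316 (adjusted p = 0.0962 for MYF6 and 0.142 for GABPA) or bear 1317 (0.158 and 0.0726) neither was called. MYF6 was not called without bear 1512 either (0.093), nor GABPA without bear 1305 (0.127) or 1509 (0.0607). With all bears, MYF6 was not called in limma voom, nor GABPA with library totals or with no filter. Over the alternatives the adjusted p ran from 0.00503 to 0.158 for MYF6 and from 0.0235 to 0.174 for GABPA.

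Among the 12 tested genes known to rise when muscle is denervated, 2 were higher, where 19.6% of all genes were. ANKRD1 rose by 4.64 (adjusted p = 6.08e-05) and GADD45A by 1.08 (adjusted p = 0.00395) on the log2 scale, each in 6 of 6 bears. CDKN1A was not called (0.75, adjusted p = 0.0556), but passed with the replicate block (0.70, adjusted p = 0.0223) and without bear 1509 (0.94, adjusted p = 0.0289, within 0.00787 to 0.174 over the alternatives). The myogenin gene MYOG stood at −0.22 (adjusted p = 0.563), the adhesion molecule NCAM1 at −0.38 (adjusted p = 0.224) and RUNX1 at 0.09 (adjusted p = 0.726). The ubiquitin ligases TRIM63 (−0.15, adjusted p = 0.574) and FBXO32 (0.23, adjusted p = 0.726) were not called. The median of the list was 0.14.

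Of the 5 glycosylation genes whose mutations cause congenital myasthenic syndromes, 3 were lower: ALG14 (−1.49, adjusted p = 8.15e-05), GMPPB (−1.16, adjusted p = 0.00103) and ALG2 (−0.49, adjusted p = 0.0383, within 0.0229 to 0.103 over the alternatives). The first 2 were lower in 6 of 6 bears. ALG2 was lower in 5 of 6, and was called with all bears or without bear 1509 but not without any of the other 5 bears. GFPT1 was called lower without bear 1509 (adjusted p = 0.0437, within 0.0437 to 0.54 over the alternatives). The median of the list was −0.49. Among the subunits of neuronal nicotinic receptors, 7 of the 10 found had fewer than 30 reads in all and were not tested. CHRNA3 was the 1 of the 3 tested that changed, lower in 6 of 6 bears by a log2 fold change of −2.29 (adjusted p = 4.67e-05), and the median of the 3 was −0.14. In edgeR, 0 genes of the cleft, glycosylation and neuronal subunit lists were higher and 0 of the transcription and denervation lists lower, where 19.6% of all genes were higher and 19.9% lower and the lists hold 3 to 12 tested genes. The same counts of 0 were found at an unadjusted p below 0.05, with the replicate block, in DESeq2 and in limma voom.

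**Figure D5:**
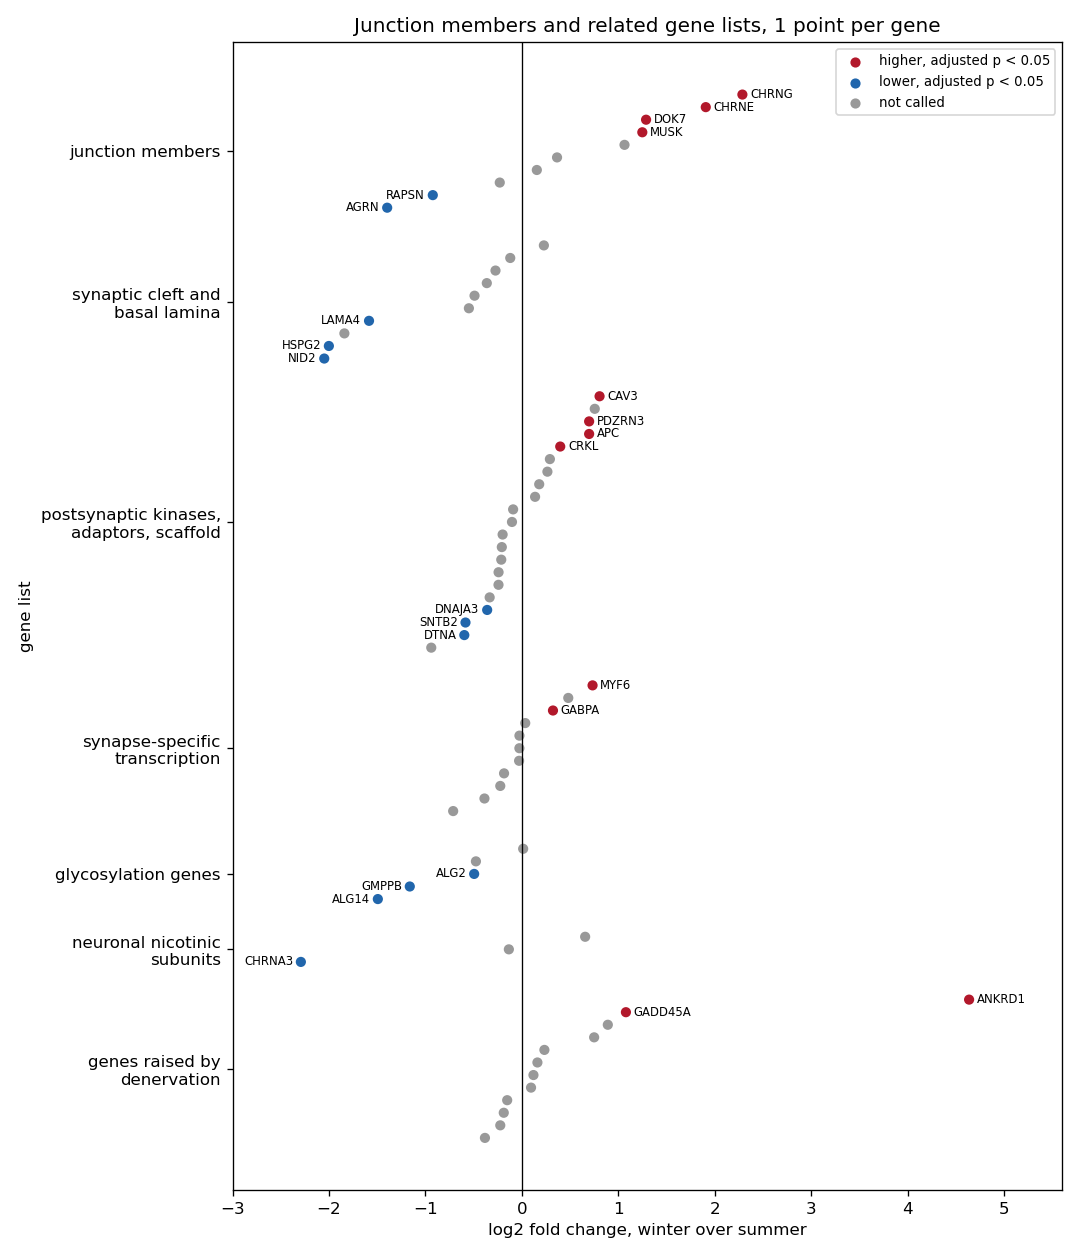
Log2 fold change of winter over summer (x axis) for the 10 junction genes and for genes of the 6 related lists (y axis, genes ordered by value within a list), red for higher and blue for lower at an adjusted p below 0.05 and grey for not called. The junction genes hold 4 red and 2 blue points, the cleft list 3 blue and the denervation list 2 red points, of which ANKRD1 lies at 4.64.

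Marker genes of other cells in the biopsies were read beside these results, and their part in the changes was not tested. Beside the counts of each list below, 19.6% of all genes tested were higher and 19.9% lower. Of the 29 calls among the markers, 17 were made under every alternative that could be fitted. With the replicate block LEP was not called, and MBP, DCN, PTPRC, TAGLN and PDGFRB were called lower. Without bear 1509 the calls of ACTA1, PECAM1, CSF1R, PAX7, CHRDL2 and CSPG4 were lost, MBP was called lower, and SNAP25 and CALCR were not tested. Of 10 Schwann cell markers 2 were lower, NGFR and S100B, and the list summed to 64.9 to 110 CPM in summer and 47.7 to 161 CPM in winter. Of 5 tested motor axon markers SLC5A7 was lower and SNAP25 higher, and without bear 1509 the latter had fewer than 30 reads and was not tested. CHAT, SLC18A3 and MNX1 were at 0 reads in all 12 libraries. Satellite cell markers were lower for 4 of 6 genes (PAX7, MYF5, CALCR and CHRDL2), with sums of 50.1 to 90.3 CPM in summer and 43.7 to 84.5 CPM in winter. CALCR had only 30 reads over the 12 libraries, and the sums rest mostly on genes of this list that were not called. Fibroblast markers were lower for 4 of 6 (COL1A1, COL1A2, COL3A1 and LUM), from sums of 4176 to 11269 CPM to sums of 269 to 1623 CPM. Macrophage markers were lower for 3 of 6 (C1QA, CSF1R and MRC1), with sums of 74.7 to 122 CPM in summer and 42.2 to 74.7 CPM in winter. Smooth muscle and pericyte markers were lower for 2 of 6 (RGS5 and CSPG4), or for 4 with the replicate block, with sums of 483 to 607 CPM and 257 to 351 CPM. Of 5 adipocyte markers LEP was higher and FABP4 lower, with sums of 297 to 1376 CPM in summer and 216 to 459 CPM in winter. LEP had only 52 reads over the 12 libraries. Of the fibre markers themselves, TTN and NEB were higher and ACTA1, MB and PYGM lower among the 9 tested, and their sum was higher in winter in 2 of 6 bears.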

How the data were processed

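RNA of 12 vastus lateralis biopsies, 6 per season, was measured by stranded poly-A sequencing. Per the labels and the study's methods, the authors aligned reads with TopHat2 2.1.1 to ASM358476v1, a brown bear assembly, counted reads per gene on the sense strand with featureCounts 1.6.2 and deposited these counts without normalization or filtering. Sequencing lanes are not assigned to libraries, so a lane effect was not tested. Antisense reads were kept apart by that counting. In another assembly (UrsArc2.0, RefSeq), used for symbols and neighbours only, 10 of 10 symbols matched, CHRND and CHRNG are neighbours, CHRNB1 overlaps ZBTB4 and MUSK a long noncoding RNA.

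Genes needed at least 30 reads in total to be tested. After TMM scaling, winter was compared with summer in edgeR 4.0.16 (R 4.3.3) by glmQLFit and glmQLFTest with season as the only term, over all 17290 genes. A gene was called at a Benjamini-Hochberg adjusted p below 0.05. Log2 CPM used a prior count of 2. Other fits were edgeR with a replicate block for the bear, DESeq2 1.42.0 with and without that block, limma 3.58.1 voom, RLE scaling, library totals, no filter, filterByExpr, each bear left out, and for the gene counts a stricter threshold. The fits were tested on simulated data.

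The bear numbers pair the libraries, since by the study's methods each animal gave a biopsy in either season. The correlation of deviations from season means was 0.0903 to 0.344 within a bear (median 0.237). Between bears it was −0.214 to 0.142 (median −0.0634), so the ranges overlapped. The 10 genes and the 15 other lists (6 of junction-related genes, 9 of cell type markers) were chosen with earlier results of these data known. Named genes were the 10, every called gene of the lists (except 1 that is not reported here), and the 3 genes most correlated with MUSK and with AGRN, the called gene of the largest fall. Uncalled genes of the lists that are named (ACHE, CDK5, UTRN, GFPT1, MBP, DCN, PTPRC, TAGLN, PDGFRB, COLQ, COL13A1, ERBB3, CDKN1A, MYOG, NCAM1, RUNX1, TRIM63 and FBXO32) were chosen after their values were seen.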

Additional observations from a re-analysis of the deposited data

Results flagged for a closer look

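In 22 groups, the 6 libraries of a season for each of the 10 genes and for the gamma to epsilon ratio, Dixon's criterion was applied to the highest and the lowest library, which chance exceeds in about 1 of 20 groups. It marked 2 libraries, each far from the rest of its season. For CHRND this was bear 1305 in summer, with 2.92 log2 CPM where the other bears had −0.02 to 1.00. For DOK7 it was bear 1509 in winter, with 0.66 log2 CPM where the other bears had 2.71 to 3.38. The latter is the library that held SNAP25 at 136 CPM.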

How the results depend on the processing

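Over the 10 genes and 14 alternatives, 130 values kept direction and side of the threshold, 7 lost a call, 3 gained one and 0 turned direction. CHRNE, CHRNG, MUSK and AGRN were called under all 14 alternatives, DOK7 under 10 and RAPSN under 11, the calls being lost in fits with a bear left out. The number of genes called higher was 3 to 5 and the number lower 1 to 2 with a bear left out. Shares of all genes are not given for those fits. At an adjusted p below 0.01 with a fold change above 1.3 or below 0.77, 3 were higher and 1 was lower, where 24.0% of all genes passed. The replicate block changed no call of the 10 genes in edgeR, which called 4 higher and 2 lower, and in DESeq2 it gave 5 higher and 2 lower. Over the 15 other lists, 14 of 121 distinct genes tested were higher and 34 lower. Of all genes tested, 19.6% were higher and 19.9% lower at that threshold of 0.05. The list counts were 15 and 41 with the replicate block, and 10 to 13 and 25 to 31 with a bear left out. For these other fits no shares of all genes are given. The median change of the gamma to epsilon ratio was −0.72, between −0.92 and −0.52 with a bear left out, and −0.67 with a prior count of 0.5. Depth limits CHRNG and CHRND most, at 8 and 10 reads in their lowest libraries.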
